A study of Mus musculus with 13 samples.

Results

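The 41 genes described here encode the machinery of the G2 and M phases of the cell cycle, in which a cell with replicated DNA prepares for mitosis, separates its chromosomes and divides. They form a list of genes named for their function; the list uses no cutoff on these arrays, though it was drawn up with earlier results of these data known. A gene was measured by every probe set whose annotation names that gene and no other, and its value is the mean log2 ratio over those probe sets. This gave 40 of the 41 genes, out of 18193 genes measured in all, through 94 probe sets. Ccnb1 was named by no probe set in the annotation used and was not analysed here. Single probe sets stood for 11 of the genes and several for the other 29.

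The cells were C2C12, an established mouse line of myoblasts, the precursors of skeletal muscle. They were grown in DMEM with 5% FBS to 90% confluence, kept in 0.2% FBS for 24 h, and given FBS again, with parallel flasks harvested every 0.5 h. The series was set up to find genes whose expression oscillates, as those of the segmentation clock do in the embryo. Total RNA of 13 time points, 0 to 6.0 h after serum, was hybridised to 1 Affymetrix mouse expression array each.

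Arrays were placed in windows by labelled time alone, though the window limits were chosen with earlier results of these data known. The 0 h array came from cells in low serum. The early window took the 4 arrays from 0.5 to 2.0 h of serum. The middle window held the 4 from 2.5 to 4.0 h, and the late window held the 4 from 4.5 to 6.0 h. All groups share the cell line and the low-serum period, and none was kept in low serum for the later hours, so time in serum and time in culture cannot be told apart. The labels give no replicates, so every p-value below measures the spread within windows or around a fitted curve, which may be technical or may be change over time. Of C2C12 as a model, the labels say only that it is a myoblast line.

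Mitosis is driven by the kinase Cdk1, which is active when bound to a cyclin of the A or B type. Kinases of the Polo and Aurora families then build the spindle, the checkpoint proteins hold the cell until every kinetochore is attached, and the anaphase-promoting complex (APC/C) with its activator Cdc20 marks securin and the cyclins for destruction. Transcripts of these genes typically accumulate together in G2 and M and are scarce in G0 and G1, where a repressor complex named DREAM binds many of their promoters. B-Myb and Foxm1 act at many of the same promoters later in the cycle. The promoters often carry a TTTGAA or TTCGAA element, known as the cell cycle genes homology region, and CCAAT boxes, which the factor NF-Y binds.

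Promoter stretches of 4 members are shown because these genes passed the most tests below with the smallest adjusted p. Each runs from 200 bases before to 30 bases after the start used in the RefSeq table (build GRCm38.p6), 5′ to 3′ on the strand of the gene. Capitals mark TTTGAA or its variant TTCGAA and the box CCAAT on either strand; TTCAAA is thus a reverse-strand TTTGAA, and the form ATTGG a reverse-strand box. The stretch of Ccnb2 is chr9:70421525-70421754 on the minus strand and that of Spag5 is chr11:78301391-78301620 on the plus strand. That of Mki67 is chr7:135716350-135716579 and that of Hmmr is chr11:40733408-40733637, both on the minus strand.
Ccnb2: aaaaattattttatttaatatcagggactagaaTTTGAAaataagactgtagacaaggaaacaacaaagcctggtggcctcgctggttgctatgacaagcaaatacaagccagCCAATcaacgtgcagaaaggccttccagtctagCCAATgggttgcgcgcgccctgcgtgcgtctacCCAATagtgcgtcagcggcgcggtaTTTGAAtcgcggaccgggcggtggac
Spag5: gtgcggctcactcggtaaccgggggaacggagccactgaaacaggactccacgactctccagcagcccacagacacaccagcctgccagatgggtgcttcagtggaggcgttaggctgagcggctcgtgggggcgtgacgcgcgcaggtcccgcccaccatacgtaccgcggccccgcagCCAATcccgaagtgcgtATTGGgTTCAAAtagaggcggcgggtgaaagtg
Mki67: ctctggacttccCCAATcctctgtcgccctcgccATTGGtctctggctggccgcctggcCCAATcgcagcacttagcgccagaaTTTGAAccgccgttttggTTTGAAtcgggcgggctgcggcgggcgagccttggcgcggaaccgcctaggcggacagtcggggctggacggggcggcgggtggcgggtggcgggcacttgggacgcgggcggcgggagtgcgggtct
Hmmr: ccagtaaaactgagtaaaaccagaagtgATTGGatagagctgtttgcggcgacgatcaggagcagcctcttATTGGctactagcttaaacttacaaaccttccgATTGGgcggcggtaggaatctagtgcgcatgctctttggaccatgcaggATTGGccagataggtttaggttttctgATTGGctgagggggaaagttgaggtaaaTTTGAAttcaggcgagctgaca
In these stretches Ccnb2 has CCAAT boxes beginning at bases -87, -54 and -21, 33 bases apart, with TTTGAA beginning at bases -167 and 5 (base 1 is the first after the start). Hmmr has reverse-strand CCAAT boxes, and its TTTGAA begins at base 9. The copies in Mki67 lie further upstream, and Spag5 carries its TTTGAA on the reverse strand at base 4.

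RefSeq windows of 300 bases, 250 before and 50 after a start, were at hand for 35 of the 41 genes, as 38 windows. Ccna2, Cdc25c, Foxm1, Aurkb, Incenp and Tpx2 had no entry. TTTGAA was searched on both strands and stood in 27 of the 38 member windows (71.1%), against 17.9% of all 32851 windows. TTCGAA stood in 10.5% of member windows and in 1.56% of all. At least 1 CCAAT was present in 81.6% of member windows and 37.4% of all, and 2 or more in 63.2% and 11.7%. TTTGAA or TTCGAA within 50 bases of the start was found in 71.1% of member windows and 5.31% of all windows. No motif contains another, though neighbouring matches may share bases at their ends. In Ube2c, CCAAT boxes on opposite strands, beginning at bases -186 and -183, overlap and count separately. A match describes these letters and is neither a site nor a cause.

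Over the 13 arrays most mitotic transcripts were highest at the start of the series and lower from 2.5 h on. As deposited ratios carry no absolute level, each gene's log2 value is given here relative to its own mean over the 13 arrays. The median of the 40 genes was 0.21 at 0 h, then 0.36, 0.34, 0.17 and 0.05 at 0.5, 1.0, 1.5 and 2.0 h. It was -0.12, -0.10, -0.12 and -0.16 from 2.5 to 4.0 h, and -0.16, -0.11, -0.14 and -0.04 from 4.5 to 6.0 h. The high values thus lie at 0 to 1.5 h, and the median crosses 0 between 2.0 and 2.5 h.

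Of the 40 genes, 39 had their highest value at 0, 0.5 or 1.0 h (3, 22 and 14 genes), as did 34.0% of all 18193 genes. The exception was Bub3, highest at 6.0 h. At 2.5 h, 39 of 40 genes lay below their own 1.0 h value, with a median change of -0.44. The share of all genes that did so was not worked out. The 2.5 h array was low in some other lists too. Above their own mean there stood 7 of the 40 members, 0 of 29 G1 and S phase genes and 0 of 15 genes of differentiated muscle. Of 11 myoblast markers, 5 did. The highest array exceeded the lowest by a median of 1.70-fold, with a range of 1.16-fold to 2.65-fold over the genes. In such bulk cultures, fewer cells holding a transcript and less of it per cell cannot be told apart.

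**Figure D1:**
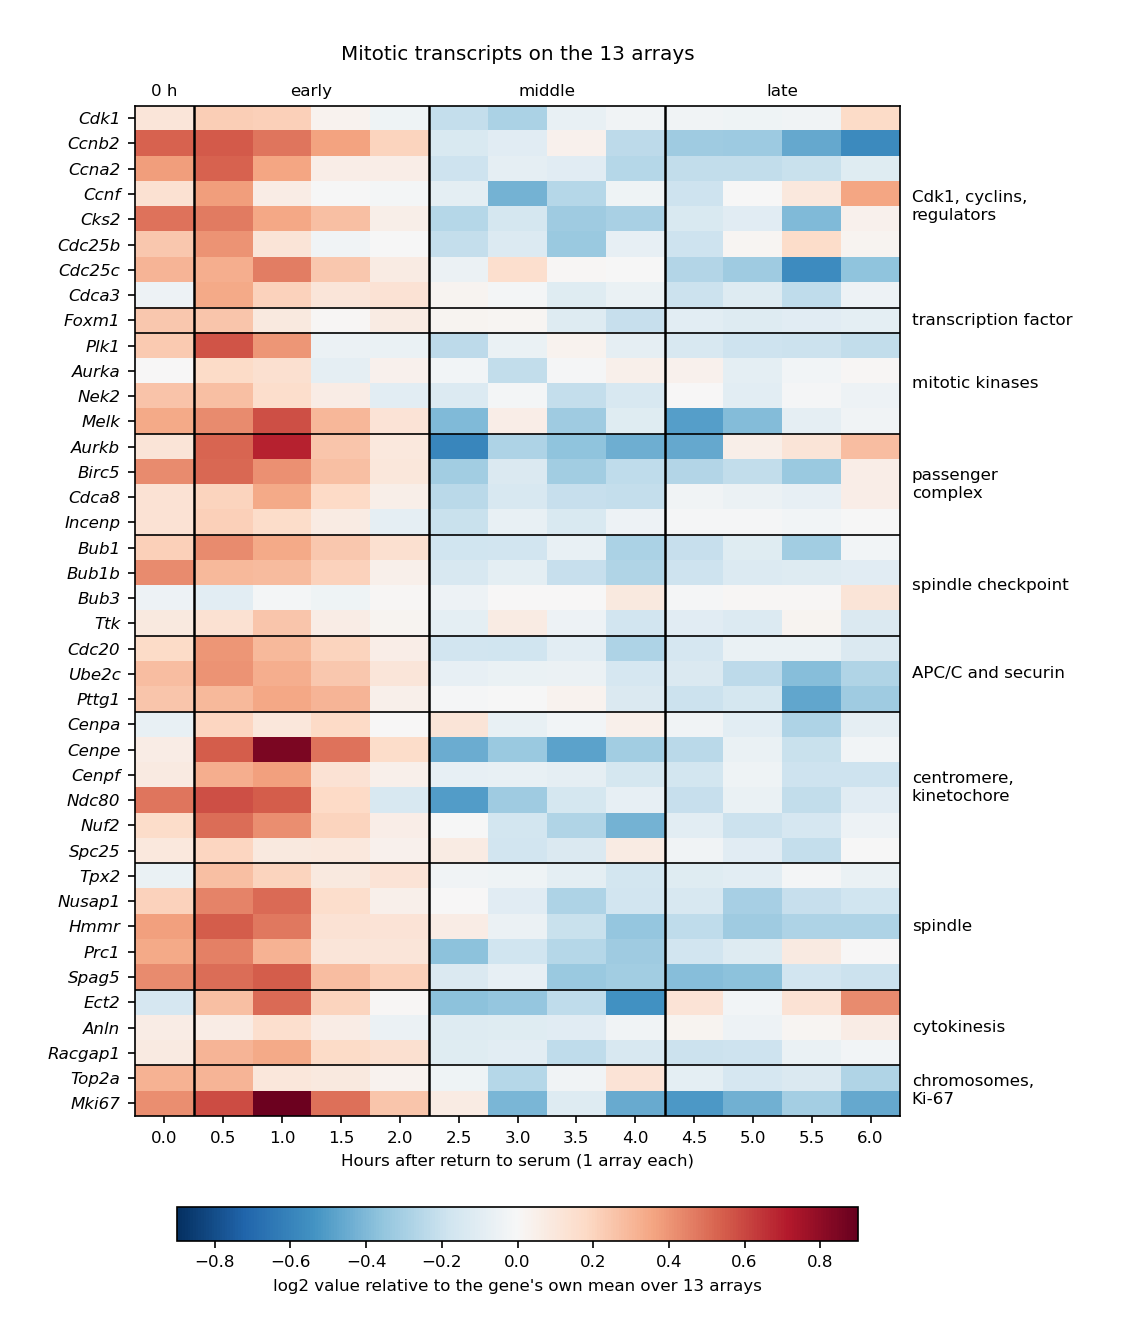
Log2 value of 40 mitotic genes on the 13 arrays (columns, hours after return to serum), each relative to the gene's own mean, with genes grouped by role and the windows separated by vertical lines. Red cells (above the own mean) fill the arrays up to 1.5 h for most genes and blue cells those from 2.5 h on; Bub3 is the main exception and Ect2, Ccnf and Aurkb return to red at 6.0 h.

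In the middle window against the early one, 30 of the 40 genes fell and 0 rose (limma, Benjamini-Hochberg adjusted p under 0.05 over 18193 genes). Over all genes 22.2% were called in this comparison, 14.4% lower and 7.74% higher. Falls of at least 0.5 on the log2 scale were called in 12 members and in 2.69% of all genes. The median difference of the members was -0.37 on the log2 scale, that of all genes -0.0009. All 4 middle arrays lay below all 4 early arrays in 26 members, which was true of 15.0% of all genes.

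In the late window against the early one, 29 members fell and 0 rose, with 21.0% of all genes called, 9.29% lower and 11.7% higher. Falls of at least 0.5 were called in 10 members and in 2.44% of all genes. The members' median difference was -0.35, against 0.02 for all genes. All late arrays lay below all early arrays in 28 members and in 11.1% of all genes. Both comparisons use the same early arrays. Called in both were 24 members, and 5 were called in neither. The shares of all genes called in both or in neither were not worked out, so these counts have no background.

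Early minus 0 h gave no called member. Its background was 3.26% of all genes (1.46% higher, 1.81% lower), 5 members had an unadjusted p under 0.05, and the fit with a robust variance trend likewise called 0 members (4 unadjusted). The members' median difference was 0.0003. This comparison rests on a single array at 0 h, which is assumed to vary like the others. Its window mean also joins the high arrays at 0.5 and 1.0 h with the lower ones at 1.5 and 2.0 h. Without the 2.0 h array Cenpe passed, at a difference of 0.56.

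The test of any smooth course called 34 of the 40 genes (38.0% of all genes). The 6 that missed it were Aurka, Bub3, Ttk, Cenpa, Spc25 and Anln. A comparison of late minus middle, added after the data had been seen, called 1 member higher (Ect2) and 3 lower (Ccnb2, Cdc25c and Pttg1), with 12.3% of all genes called (10.3% higher and 2.06% lower). The members' median difference was 0.01, against 0.02 for all genes, and 36 members missed the test.

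**Figure D2:**
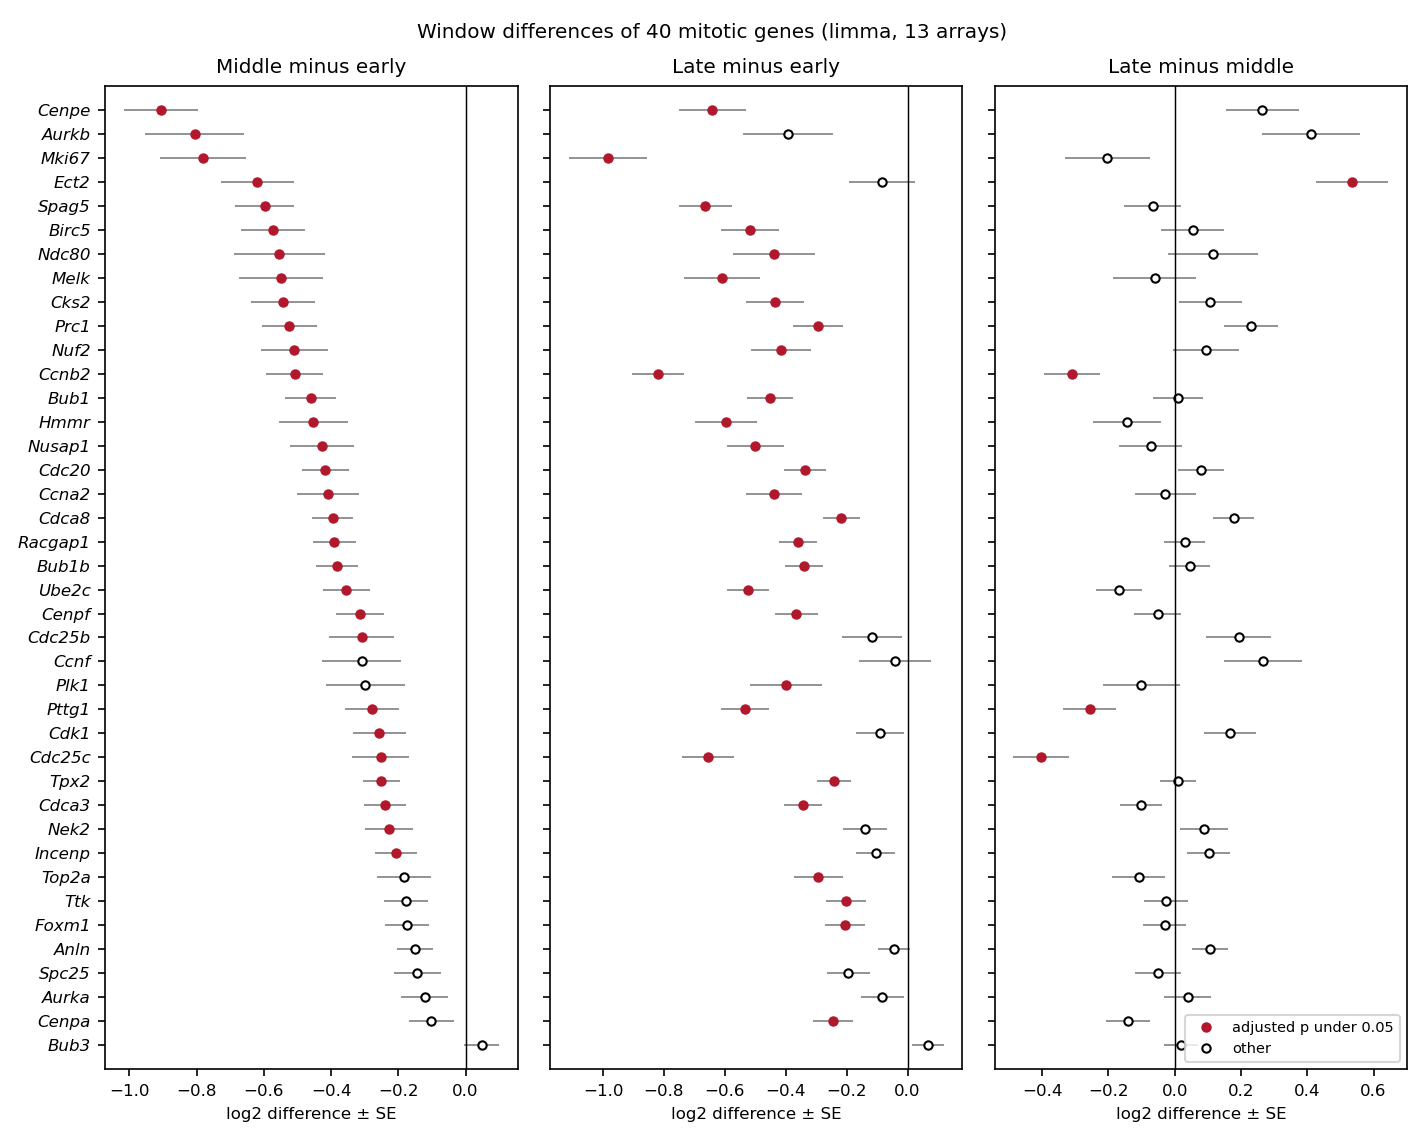
Log2 difference with its SE (bars) of 40 mitotic genes in 3 window comparisons, ordered by middle minus early; filled red points have adjusted p under 0.05. In the left and centre panels 39 of 40 points lie below 0, while in the right panel the points lie on both sides of 0.

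Among the 8 measured genes of Cdk1 and its cyclins and regulators, 7 fell in the middle window and 5 in the late one. Counts per role are to be read against 14.4% of all genes lower in the middle window and 9.29% in the late one. Ccnb2, a B-type cyclin that binds Cdk1, had 0.53 at 0 h, then 0.55, 0.48, 0.36 and 0.20 in the early window, -0.14, -0.10, 0.04 and -0.24 in the middle window, and -0.32, -0.33, -0.46 and -0.58 in the late window. Each window lay below the one before it with no overlap, though within the middle window the value at 3.5 h stood above that at 2.5 h. Middle minus early was -0.51 ± 0.08 (SE, limma adjusted p = 0.00114), late minus early -0.82 ± 0.08 (limma adjusted p = 2.67e-05) and late minus middle -0.31 ± 0.08 (limma adjusted p = 0.0284). The last call was lost without any 1 of the arrays at 2.5, 3.0, 3.5, 5.5 and 6.0 h, with differences of -0.32 to -0.26. Ccna2, the A-type cyclin of S and G2 phase, had 0.37 at 0 h, then 0.53, 0.35, 0.06 and 0.06, next -0.19, -0.08, -0.10 and -0.26, and last -0.22, -0.22, -0.20 and -0.11. It dropped between 1.0 and 1.5 h and lay below its early values on every array from 2.5 h on. Its differences were -0.41 ± 0.09 in middle minus early (limma adjusted p = 0.00640) and -0.44 ± 0.09 in late minus early (limma adjusted p = 0.00320).

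Cdk1, the kinase that drives entry into mitosis, had 0.11 at 0 h, then 0.22, 0.21, 0.03 and -0.04 in the early window, -0.21, -0.29, -0.07 and -0.03 in the middle window, and -0.03, -0.04, -0.03 and 0.17 in the late window. Its minimum at 2.5 and 3.0 h was followed by a return, and at 6.0 h it stood near its early values. The middle-minus-early difference was -0.26 ± 0.08 (limma adjusted p = 0.0301), a call lost without any 1 of the arrays at 0.5, 1.0, 2.5 and 3.0 h, with differences of -0.24 to -0.21. Late minus early was -0.09 ± 0.08 and did not pass (limma adjusted p = 0.494).

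Cdc25c, a phosphatase that activates Cdk1, had 0.31 at 0 h, 0.33, 0.46, 0.25 and 0.07 in the early window, -0.06, 0.15, 0.01 and -0.01 in the middle window, and -0.27, -0.32, -0.56 and -0.36 in the late window. Its fall came in 2 steps, and only the late window was clear of the early one. Late minus early was -0.65 ± 0.08 (limma adjusted p = 0.000101) and late minus middle -0.40 ± 0.08 (limma adjusted p = 0.00851). Middle minus early (-0.25 ± 0.08, limma adjusted p = 0.0450) was lost without any 1 of 8 arrays (0.5, 1.0, 1.5, 2.5, 3.5, 4.0, 5.0 and 6.0 h), with differences of -0.26 to -0.19. Its relative Cdc25b was highest at 0.5 h (0.41) and at 0.16 again at 5.5 h. The middle-window fall of Cdc25b, -0.31 ± 0.10 (limma adjusted p = 0.0355), was lost without any 1 of the arrays at 0.5, 1.0, 2.5 and 3.5 h, with differences of -0.31 to -0.22, and its late window (-0.12 ± 0.10) did not pass.

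Cks2, a small subunit of the Cdk1 complex, started at 0.49 at 0 h, with 0.47, 0.35, 0.27 and 0.05 in the early window. It had -0.26, -0.16, -0.32 and -0.29 in the middle window and -0.14, -0.10, -0.40 and 0.04 in the late window. Every middle and late array lay below the early ones. The middle-minus-early difference was -0.54 ± 0.09 (limma adjusted p = 0.00151) and late minus early -0.44 ± 0.09 (limma adjusted p = 0.00411). Cdca3, a trigger of the destruction of the mitosis inhibitor Wee1, was at -0.04 at 0 h and 0.34 at 0.5 h, and fell by 0.24 and 0.34 in the middle and late windows. Ccnf, the founding F-box protein, passed neither comparison (-0.31 ± 0.12 and -0.04 ± 0.12) but passed the smooth course (limma adjusted p = 0.00389), with 0.38 at 0.5 h, -0.43 at 3.0 h and 0.35 at 6.0 h. Without the 6.0 h array its middle-window difference passed at -0.31.

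Foxm1, a transcription factor that drives many of the other members, had 0.24 at 0 h, then 0.25, 0.09, 0.01 and 0.08, next 0.03, 0.02, -0.12 and -0.21, and last -0.09, -0.11, -0.10 and -0.09. The middle arrays overlapped the early ones and the late arrays did not. Late minus early was -0.20 ± 0.07 (limma adjusted p = 0.0366), a call lost without any 1 of the arrays at 0.5, 1.0, 2.0, 4.5, 5.0, 5.5 and 6.0 h, with differences of -0.21 to -0.16. Against the early window, the middle window differed by -0.17 ± 0.07 (limma adjusted p = 0.0683) and passed without the 2.5 h array, at -0.21. Of its 4 probe sets, 3 fell in the late window and the other was at 0.10.

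Among the 4 mitotic kinases, 2 fell in the middle window (Melk and Nek2) and 2 in the late one (Melk and Plk1). Plk1, the Polo-like kinase needed for mitotic entry and spindle assembly, had 0.23 at 0 h, 0.56, 0.40, -0.05 and -0.06 in the early window, -0.24, -0.06, 0.03 and -0.08 in the middle window, and -0.14, -0.19, -0.19 and -0.22 in the late window. It dropped within the early window, between 1.0 and 1.5 h, so that its early SD was 0.32 (n = 4). Late minus early was -0.40 ± 0.12 (limma adjusted p = 0.0248), lost without any 1 of the arrays at 0.5, 1.0, 5.0, 5.5 and 6.0 h, with differences of -0.40 to -0.28. Middle minus early was -0.30 ± 0.12 (limma adjusted p = 0.0819) and passed without the 1.5 h or the 2.0 h array, at -0.39 in each case.

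Aurka, the Aurora kinase of centrosomes, had 0.01 at 0 h, then 0.17, 0.14, -0.08 and 0.04, next -0.02, -0.22, -0.01 and 0.04, and last 0.04, -0.09, -0.02 and 0.01. The windows overlapped, and no test was passed as a gene. Of its 2 probe sets, 1 fell in the middle window, by 0.27, and the other was at 0.02. Melk, a kinase abundant in dividing cells, was highest at 1.0 h (0.58) and at -0.50 at 4.5 h, and fell by 0.55 in the middle and 0.61 in the late window. Nek2, a kinase that separates centrosomes, was at 0.27 at 0.5 h. Its middle-window fall, -0.23 ± 0.07 (limma adjusted p = 0.0355), was lost without any 1 of the arrays at 0.5, 1.0, 1.5, 2.5, 3.5 and 4.0 h (-0.24 to -0.17), and its late window (-0.14 ± 0.07) passed without the 2.0 h array at -0.20.

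All 4 genes of the chromosomal passenger complex, the Aurora B module that corrects kinetochore attachment and directs cytokinesis, fell in the middle window. Birc5 (survivin) had 0.43 at 0 h, 0.52, 0.41, 0.27 and 0.10 in the early window, -0.31, -0.13, -0.31 and -0.23 in the middle window, and -0.26, -0.22, -0.34 and 0.06 in the late window. Only its 6.0 h array among the later ones came back above its own mean. The middle-minus-early difference was -0.57 ± 0.10 (limma adjusted p = 0.00113) and late minus early -0.52 ± 0.10 (limma adjusted p = 0.00125).

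Aurkb, the kinase of the complex, named here after its values were seen, had 0.12 at 0 h, then 0.52, 0.69, 0.25 and 0.09, next -0.58, -0.28, -0.36 and -0.44, and last -0.46, 0.05, 0.11 and 0.28. The middle window was below every early array, and 3 of the 4 late arrays were above every middle one. Against the early window, the middle window differed by -0.81 ± 0.15 (limma adjusted p = 0.00199) and late minus early -0.39 ± 0.15 (limma adjusted p = 0.0750), which passed without the 2.0 h array (-0.49) or the 6.0 h array (-0.49). Late minus middle was 0.41 ± 0.15 (limma adjusted p = 0.0843) and passed without the 4.5 h array, at 0.56. Cdca8 (borealin) fell by 0.40 in the middle and 0.22 in the late window. Its late call was lost without the arrays at 1.0, 5.0 or 5.5 h, with differences of -0.21 to -0.17. For Incenp, the scaffold, the middle-window fall of 0.21 was lost without any 1 of the arrays at 0.5, 1.0, 1.5, 2.5 and 3.5 h (-0.21 to -0.17), and the late window (-0.10 ± 0.06) did not pass.

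Of the 4 spindle checkpoint genes, 2 fell in the middle window and 3 in the late one. Bub1b (BubR1), a kinase-like checkpoint protein that inhibits Cdc20, had 0.42 at 0 h, 0.29, 0.28, 0.21 and 0.04 in the early window, -0.15, -0.09, -0.21 and -0.27 in the middle window, and -0.18, -0.12, -0.12 and -0.11 in the late window. It was 1 of the 3 members highest in low serum, with Cks2 and Top2a, and its later windows lay wholly below the early one. Probe sets differed here. Early minus 0 h was -0.54, -0.08 and -0.03 in the 3 of Bub1b, and -0.50, -0.05 and 0.01 in those of Top2a. The Bub1b probe set at -0.54 was at 0.16 in middle minus early and was not called. For Bub1b as a gene, middle minus early was -0.38 ± 0.06 (limma adjusted p = 0.00103) and late minus early -0.34 ± 0.06 (limma adjusted p = 0.00129).

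Bub1, the kinase that recruits the checkpoint proteins to kinetochores, fell by 0.46 in the middle and 0.45 in the late window. Ttk (Mps1), the kinase at the top of the checkpoint, was at -0.18 ± 0.07 in the middle window, which passed without the 3.0 h array at -0.22. In the late window it fell by 0.20 (limma adjusted p = 0.0426), a call lost without any 1 of the arrays at 0.5, 1.0, 1.5, 3.5, 4.5, 5.0 and 6.0 h (-0.22 to -0.16). Bub3, a partner of Bub1 and Bub1b, stayed between -0.09 (0.5 h) and 0.12 (6.0 h). Its differences, 0.05 ± 0.05 in the middle and 0.07 ± 0.05 in the late window, were the only ones above 0 in the set and did not pass. Of its 5 probe sets, 1 rose in each window, by 0.31 and 0.39.

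All 3 genes of the APC/C and securin group fell in both windows. Ube2c, the ubiquitin-conjugating enzyme of the APC/C, had 0.28 at 0 h, 0.40, 0.33, 0.24 and 0.11 in the early window, -0.08, -0.06, -0.05 and -0.15 in the middle window, and -0.13, -0.23, -0.38 and -0.27 in the late window. Both later windows lay below every early array, while the middle and late ranges overlapped. The middle-minus-early difference was -0.35 ± 0.07 (limma adjusted p = 0.00285) and late minus early -0.52 ± 0.07 (limma adjusted p = 0.000122). Pttg1 (securin), which holds back the protease separase until anaphase, had 0.25 at 0 h, then 0.29, 0.35, 0.31 and 0.05, next -0.01, 0.00, 0.03 and -0.13, and last -0.19, -0.16, -0.47 and -0.32. It fell in steps, and the 3 windows did not overlap.

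For Pttg1, late minus early was -0.53 ± 0.08 (limma adjusted p = 0.000285). Its middle minus early, -0.28 ± 0.08 (limma adjusted p = 0.0224), was lost without any 1 of the arrays at 0.5, 1.0, 1.5 and 4.0 h, with differences of -0.26 to -0.24. Its late minus middle, -0.26 ± 0.08 (limma adjusted p = 0.0496), was lost without any 1 of 7 arrays (1.0, 1.5, 2.5, 3.0, 3.5, 5.5 and 6.0 h), with differences of -0.26 to -0.19. Cdc20, the APC/C activator and the target of the checkpoint, was highest at 0.5 h (0.40) and fell by 0.42 in the middle and 0.34 in the late window.

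Of the 6 centromere and kinetochore genes, 4 fell in the middle window and 5 in the late one. Cenpe, a kinesin that carries chromosomes to the spindle equator, had 0.06 at 0 h, 0.54, 0.85, 0.49 and 0.16 in the early window, -0.45, -0.34, -0.48 and -0.31 in the middle window, and -0.24, -0.06, -0.20 and -0.02 in the late window. Its 1.0 h value was 2.46-fold its 2.5 h value, the largest such ratio among the 40 genes, and no late array was within the middle range. Against the early window, the middle window differed by -0.91 ± 0.11 (limma adjusted p = 0.000232), the largest fall of the set, and late minus early -0.64 ± 0.11 (limma adjusted p = 0.000755). Late minus middle was 0.26 ± 0.11 and did not pass (limma adjusted p = 0.133). The 2 probe sets of Cenpe differed there, at -0.05 and 0.57, and in early minus 0 h, at 0.09 and 0.80. Both fell in the middle and the late window.

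Ndc80 and Nuf2, which together form the microtubule-binding arm of the Ndc80 complex, fell by 0.55 and 0.51 in the middle window and by 0.44 and 0.42 in the late window. The late call of Ndc80 (limma adjusted p = 0.0317) was lost without any 1 of the arrays at 0.5, 1.0, 4.5, 5.5 and 6.0 h, with differences of -0.45 to -0.34. Spc25, of the same complex, passed neither test as a gene (-0.14 ± 0.07 and -0.19 ± 0.07). Of its 2 probe sets, 1 fell in both windows, by 0.50 and 0.44, and the other was at 0.21 and 0.05. Cenpf, a large protein of the outer kinetochore, fell by 0.31 and 0.36. Cenpa, the histone H3 variant that marks centromeres, was at -0.10 ± 0.07 in the middle window and fell by 0.24 in the late one (limma adjusted p = 0.0167), a call lost without the 5.5 h array at -0.19.

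All 5 spindle genes fell in both windows. Spag5 (astrin), which links spindle and kinetochore, had 0.43 at 0 h, 0.50, 0.54, 0.28 and 0.21 in the early window, -0.13, -0.08, -0.33 and -0.31 in the middle window, and -0.38, -0.37, -0.17 and -0.19 in the late window. Every later array lay below every early one. Middle minus early was -0.60 ± 0.09 (limma adjusted p = 0.000521) and late minus early -0.66 ± 0.09 (limma adjusted p = 0.000112). Hmmr, a spindle protein also known as a hyaluronan receptor, had 0.37 at 0 h, then 0.55, 0.47, 0.13 and 0.12, next 0.07, -0.06, -0.20 and -0.35, and last -0.23, -0.32, -0.28 and -0.28. Its decline went on through the middle window in place of a step at 2.5 h, and its late arrays were nearly level.

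For Hmmr, middle minus early was -0.45 ± 0.10 (limma adjusted p = 0.00666) and late minus early -0.60 ± 0.10 (limma adjusted p = 0.000778). Of its 5 probe sets, 4 fell in each window and the other was at 0.13 and 0.04. Tpx2, which activates Aurka on the spindle, fell by 0.25 and 0.24, and Nusap1, a microtubule-bundling protein, by 0.43 and 0.50. Prc1, which bundles the central spindle, fell by 0.52 and 0.29. The late call of Prc1 (limma adjusted p = 0.0189) was lost without any 1 of the arrays at 0.5, 1.0, 4.5 and 5.0 h, with differences of -0.27 to -0.23, and its late minus middle (0.23 ± 0.08) passed without the 0.5 h array.

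Among the 3 cytokinesis genes, 2 fell in the middle window and 1 in the late one. Ect2, the exchange factor that activates RhoA at the cleavage furrow, named here after its values were seen, had -0.15 at 0 h, 0.27, 0.51, 0.20 and 0.01 in the early window, -0.37, -0.35, -0.23 and -0.55 in the middle window, and 0.12, -0.03, 0.13 and 0.43 in the late window. All its middle arrays lay below all early and all late ones. Against the early window, the middle window differed by -0.62 ± 0.11 (limma adjusted p = 0.00155), and late minus middle, at 0.54 ± 0.11 (limma adjusted p = 0.00723), was the only rise called in the set. Late minus early was -0.08 ± 0.11 and did not pass (limma adjusted p = 0.672). Racgap1, a subunit of the centralspindlin complex to which Ect2 binds, fell by 0.39 and 0.36. Anln (anillin), an actin-binding protein of the furrow, passed neither comparison as a gene (-0.15 ± 0.05 and -0.04 ± 0.05), and its middle-window difference passed without the 2.0 h array at -0.19. Of its 2 probe sets, 1 fell in the middle window, by 0.51, and the other was at 0.21 and was not called. In the late window 1 fell and 1 rose, by 0.37 and 0.28.

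Mki67 encodes Ki-67, a protein that coats mitotic chromosomes and is used as a marker of dividing cells. It had 0.42 at 0 h, 0.59, 0.88, 0.49 and 0.25 in the early window, 0.08, -0.41, -0.12 and -0.46 in the middle window, and -0.52, -0.43, -0.31 and -0.46 in the late window. The later windows lay below all early arrays, and the late arrays stayed at the bottom of its range. Its middle-minus-early difference was -0.78 ± 0.13 (limma adjusted p = 0.00109) and late minus early -0.98 ± 0.13 (limma adjusted p = 0.000109), the largest late fall of the set. Top2a, the topoisomerase that untangles chromosomes before anaphase, was at -0.18 ± 0.08 in the middle window and fell by 0.29 in the late one (limma adjusted p = 0.0171), a call lost without the 0.5 h array (-0.23) or the 6.0 h array (-0.26).

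**Figure D3:**
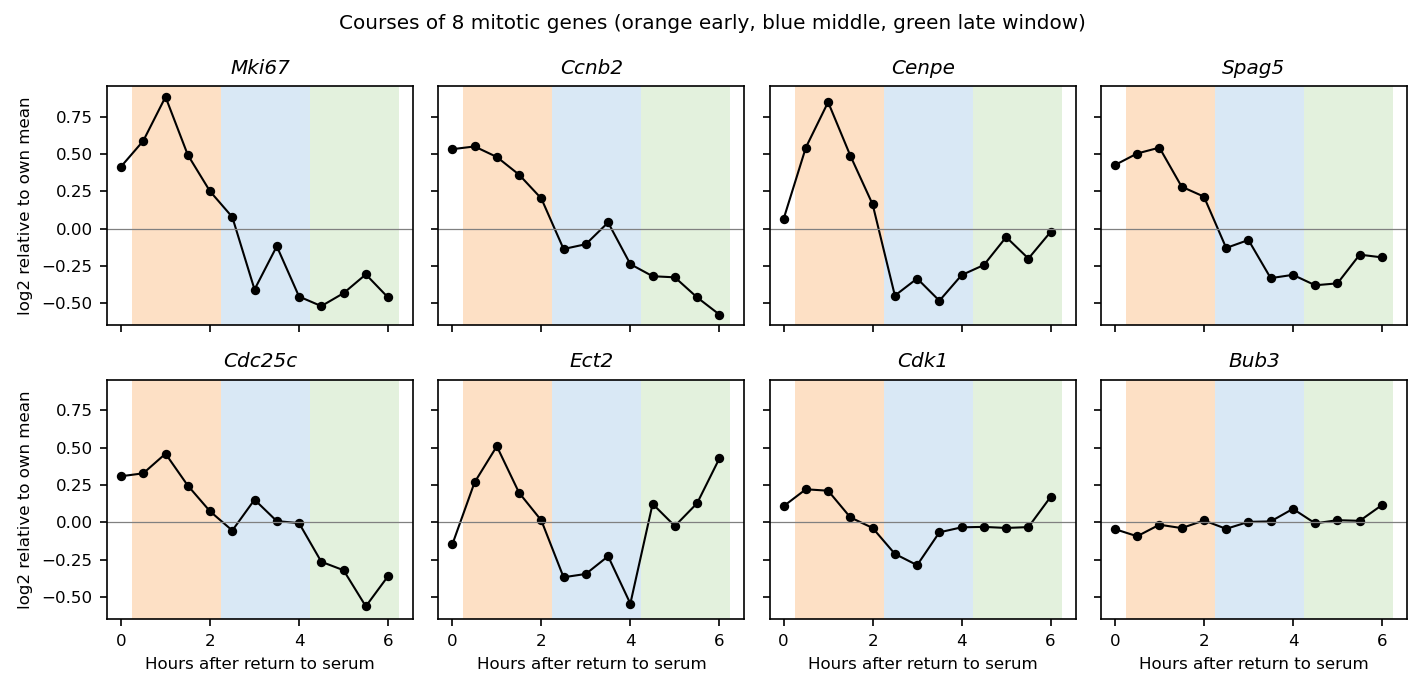
Log2 value relative to the gene's own mean (vertical axis) against hours after return to serum for 8 mitotic genes, 1 point per array, with the early, middle and late windows shaded orange, blue and green. Mki67, Ccnb2, Cenpe and Spag5 peak at 0.5 or 1.0 h and are low later, Cdc25c falls again after 4.0 h, Ect2 and Cdk1 are lowest in the middle window and above their means at 6.0 h, and Bub3 stays between -0.09 and 0.12.

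The members' courses resembled each other. The correlation of each gene with the mean of the other members over the 13 arrays had a median of 0.86, as a description with no test, since all genes share the same arrays. It was above 0.8 in 27 genes, highest for Birc5 (0.96) and Spag5 (0.96). The lowest values were those of Ccnf (0.53), Ect2 (0.54), Cenpa (0.54) and Aurka (0.55), and that of Bub3 was -0.57. Among all other genes the median correlation with the mean of all members was -0.04, and the share above 0.8 was not worked out. The 6 genes outside the set most like its mean were Kitl (0.99), Lifr (0.99), Peli2 (0.98), Tshz3 (0.98), Tbl1xr1 (0.98) and Ndrg3 (0.98), and none of them stands in the other lists of cell cycle genes used here.

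At the level of probe sets, 56 of the 94 fell and 2 rose in the middle window, 48 fell and 2 rose in the late window. At least 1 probe set fell in the middle window for 37 of the 40 genes, and in the late window for 32. The share called among all 45037 probe sets was not worked out, so these counts have no background to be read against. The count by gene also depends on how many probe sets a gene has. Probe sets of 1 gene differed most for Bub1, where the middle-window differences were -0.94 and 0.02, followed by Hmmr (from -0.74 to 0.13), Bub1b (from -0.71 to 0.16), Top2a (from -0.71 to 0.15) and Cenpa (from -0.42 to 0.44). For Cks2 they lay close, at -0.58 and -0.50, and likewise for Ccna2, at -0.42 and -0.40. A gene's value is thus an average of probe sets that need not move alike.

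The series was set up to find oscillating genes, and the search here was for a period of 2 h. It called 0 of the 40 members and 0 of 18193 genes, a background of 0%. With limma and no adjustment, 1 member, the kinetochore gene Nuf2, passed at 0.05, against 3.96% of all genes. The smallest adjusted p of any gene was 0.998. Periods of 1.5 h and 2.5 h gave 0 called members too, with 0 and 5 unadjusted. Each time had a single array, and the size of oscillation that these fits could detect is not given here. The lack of calls therefore cannot decide whether any of these genes oscillates.

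Members with TTTGAA or TTCGAA in a RefSeq window and those without did not form separate groups by size of change. The 26 measured members with it had a median middle-minus-early difference of -0.33 (from -0.78 to 0.05), and the 8 without it had -0.53 (from -0.91 to -0.23). This is a description of the windows at hand and was given no test. Bub3, which did not fall, holds the motif, and Cenpe, which fell most, does not.

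Other genes of the mitotic apparatus moved the same way in part. Over 6 further lists with 92 measured genes, 45 fell and 1 rose in the middle window, and 33 fell and 6 rose in the late one. The shares of all genes were 14.4% lower and 7.74% higher in the middle window, and 9.29% lower and 11.7% higher in the late one. The median differences of the 92 genes were -0.23 and -0.12, against -0.37 and -0.35 for the 40 members. In late minus middle 24 of the 92 rose and 0 fell, where 10.3% of all genes were called higher.

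Of 12 mitotic kinesins, 7 fell in each window, where 14.4% and 9.29% of all genes fell. Kif11, which pushes spindle poles apart, fell by 0.56 ± 0.07 and 0.48 ± 0.07, and Kif20a, a kinesin of cytokinesis, by 0.67 ± 0.10 and 0.59 ± 0.10. Of 14 condensin and cohesin genes, 8 fell in the middle window and 6 in the late one, among them the condensin subunit Ncapd2 (-0.40 and -0.41) and the cohesin subunit Rad21 (-0.67 and -0.39). Among 33 other kinetochore, spindle and cytokinesis genes, 21 and 14 fell, and 0 and 2 rose, where 7.74% and 11.7% of all genes rose. Tacc3, a spindle protein, fell by 0.22 and 0.37, and Iqgap3 by 0.31 and 0.37.

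Regulators of these genes and proteins formed 3 short lists, whose counts are to be read against 14.4% of all genes lower and 7.74% higher in the middle window, and 9.29% lower and 11.7% higher in the late one. Of 14 APC/C subunits and activators, 6 fell in the middle window and 3 in the late one, among them Anapc2 (-0.46 and -0.56), a cullin-like subunit, and Fzr1 (-0.30 and -0.29), the activator used after mitosis. Of 9 genes controlling mitotic entry, 2 fell in the middle window, and 2 fell and 1 rose in the late one, with the phosphatase Cdkn3 at -0.52 and -0.67 and the kinase Mastl at -0.25 and -0.29. Of 10 genes of the MuvB, DREAM and B-Myb complexes, 1 rose and 1 fell in the middle window, 3 rose and 1 fell in the late one. The pocket protein Rbl2 (p130), which holds DREAM together in quiescent cells, fell by 0.97 ± 0.12 and 0.72 ± 0.12, while Tfdp1, the DNA-binding partner of E2F factors, was not called in the middle window and rose by 0.41 ± 0.07 in the late one.

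Genes of G1 and S phase were taken for comparison. Of 29, 6 rose and 3 fell in the middle window, and 19 rose and 0 fell in the late one, with medians of -0.06 and 0.47. Over all genes 7.74% rose and 14.4% fell in the middle window, and 11.7% rose and 9.29% fell in the late one. Ccnd1, the D-type cyclin of G1, rose by 0.86 ± 0.10 and 1.33 ± 0.10, and Cdt1, a replication licensing factor, by 0.34 ± 0.10 and 0.94 ± 0.10. The difference between the 2 lists was not tested.

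**Figure D4:**
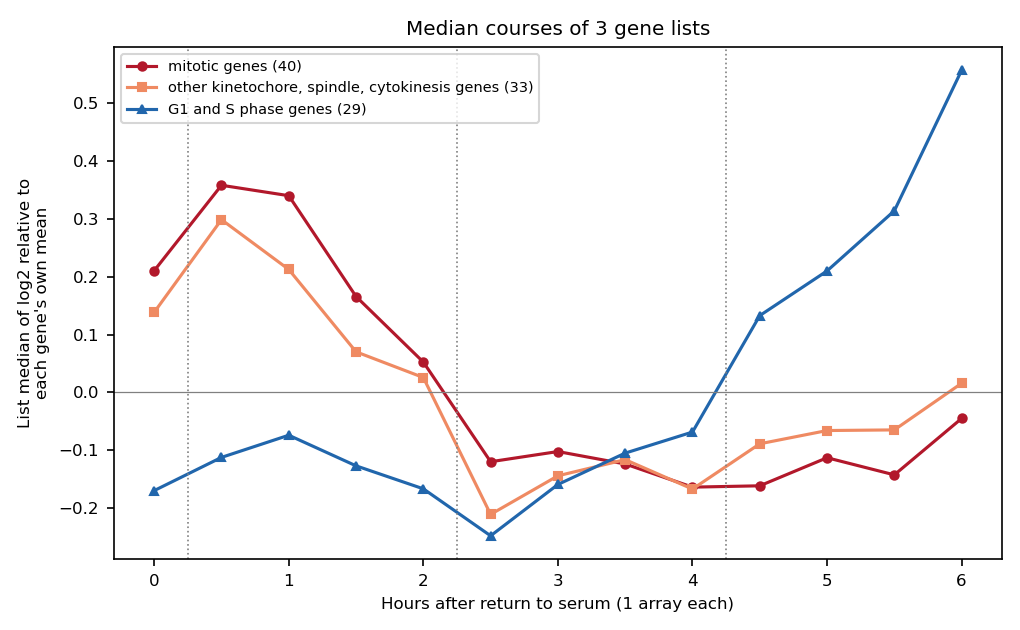
Median log2 value relative to each gene's own mean (vertical axis) against hours after return to serum for the 40 mitotic genes (circles), 33 other kinetochore, spindle and cytokinesis genes (squares) and 29 G1 and S phase genes (triangles), with dotted lines between windows. The mitotic median is highest at 0.5 h (0.36) and stays below 0 from 2.5 h on, where the G1 and S phase median climbs after 4.0 h to 0.56 at 6.0 h.

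Median ratios of the 13 arrays were 0.977 to 1.00. The control probe set at the 5′ end of 18S rRNA ran at 0.849 at 0 h, 0.411 to 1.40 in the early window, 0.397 to 2.14 in the middle window and 0.889 to 5.24 in the late window, and that at the 5′ end of beta-actin at 0.972, 1.00 to 1.06, 0.960 to 0.982 and 1.02 to 1.13. Among 15 genes of differentiated muscle 12 rose and 1 fell in the late window and 0 rose and 1 fell in the middle one. Among 11 myoblast markers 1 rose and 1 fell in the middle window and 1 rose in the late one. Over all genes 7.74% rose and 14.4% fell in the middle window, and 11.7% rose and 9.29% fell in the late one. Of 9 markers of blood and endothelial cells 0 were called in the 4 window comparisons and 1 in the test of a smooth course (limma adjusted p = 0.0306). The part of these in the results on mitotic genes was not tested, and as ratios hold no level, the labelled cell type could not be checked against its markers.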

How the data were processed

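Total RNA of 13 C2C12 cultures was measured on 1 array each. The deposited values are linear ratios to a reference of each probe set, made with RMA (version not stated) per the submitters' processing notes; the sources used here do not give how the authors formed the ratio. A ratio removes the absolute level, so dim probe sets could not be filtered, changes of dim transcripts may be compressed, and levels of different genes cannot be compared. The number of arrays limits the precision.

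The table held 45101 probe sets. After 64 controls were left out, 34945 of 45037 named 1 gene, 932 several and 9160 none; 1 that names Foxm1 among several genes was left out. Log2 ratios were averaged per gene and fitted on all 18193 genes with limma 3.58.1 (lmFit and eBayes) in R 4.3.3, with Benjamini-Hochberg adjustment over all genes and a threshold of 0.05. The fits were 4 window means, a natural cubic spline in time (4 df), and a cosine and a sine of 2 h period over a spline of 3 df. The late-minus-middle comparison was added after the data had been seen. The models were tested on simulated data. Promoters came from RefSeq, and tables and figures were made with pandas 2.3.3, matplotlib 3.10.9 and numpy 2.4.6 under Python 3.11.15.

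The members, the other lists, the windows and the tests were chosen with earlier results of these data known. Values on every array are given for the 12 members with the smallest adjusted p that passed the most tests (Mki67 among them), for Cdk1, Plk1, Aurka and Foxm1, and for Aurkb and Ect2, added after their values were seen, and 2 genes of each other list are named by the smallest p in late minus early. Alternatives were other scalings, a robust variance trend, 1 probe set per gene, a minimum change, other windows, splines and periods, and each array left out in turn.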

Additional observations from a re-analysis of the deposited data

Results flagged for a closer look

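Among 120 sets of 4 arrays (40 genes in 3 windows), 3 held an array far from the other 3 by Dixon's test. Chance alone gives about 1 such set in 20, so the number is below that. Cdk1, the kinase that drives mitosis, stood at 0.17 at 6.0 h, where its other late arrays lay between -0.04 and -0.03. The kinetochore gene Cenpf was at -0.16 at 4.0 h, against -0.08 to -0.07 on its other middle arrays. It was at -0.04 at 5.0 h, against -0.19 to -0.17 on its other late arrays. All values are log2 relative to the gene's own mean over the 13 arrays.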

How the results depend on the processing

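No paired analysis was possible because each time has a single sample and the labels number no replicates. Of the members' called window differences 3 turned in direction under an alternative, all with 1 probe set per gene: Hmmr stood at 0.13 in middle minus early and 0.044 in late minus early, and Foxm1 at 0.10 in late minus early. That probe set was picked by its name alone, and in both genes it was the probe set that had not fallen with the others. Differences that had not passed turned too: with 1 probe set per gene Spc25 stood at 0.21 and 0.05 in the middle and late windows, and Ttk at 0.14 and Foxm1 at 0.11 in the middle one, none of them called. Bub3 was then called higher, at 0.31 and 0.39. Newly called lower in that setting were Ccnf, Aurka, Cenpa and Anln in middle minus early, and Nek2 and Anln in late minus early. It called 31 members in middle minus early and 25 in late minus early, and 3565 and 3311 of all 18193 genes. In early minus 0 h, where no member was called, 6 members changed sign under quantile normalization, 7 with 1 probe set per gene and 14 with some array left out; in late minus middle 7, 2 and 9 did, none of them called. Requiring a log2 change of at least 0.5 left 12 members in middle minus early, 10 in late minus early and 1 in late minus middle. With each array left out in turn, called members numbered 0 to 1 in early minus 0 h, 24 to 32 in middle minus early, 23 to 30 in late minus early, 30 to 35 in the smooth course, 0 to 0 in the oscillation and 2 to 5 in late minus middle. The last count was 2 without any 1 of the arrays at 2.5, 3.0, 3.5, 5.5 and 6.0 h. Quantile normalization gave 24, 29 and 32 called members in middle minus early, late minus early and the smooth course, and centring on the array median 28, 29 and 34. Over all 18193 genes the calls then numbered 3659, 4128 and 6104 with quantile normalization, and 4111, 3851 and 7030 with that centring. Outside the minimum change and a straight line over 0.5 to 6.0 h, 22 of 30 calls in middle minus early held under every alternative. So did 18 of 29 in late minus early and 2 of 4 in late minus middle. The straight line, run for late minus early alone, called 26 members lower and was not followed gene by gene. It called 3419 of all genes in either direction. With 1 probe set per gene, Cdca3 and Pttg1 lost both calls against the early window (-0.07 and -0.01 in the middle window). Cdc25c lost its middle-window call, and Cdca8, Ttk and Top2a lost their late-window calls.

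Over all genes, early minus 0 h called 594 genes, against 45 after quantile normalization, 250 with an early window of 0.5 to 1.5 h, 337 with the minimum change and 298 to 1431 with 1 array left out. Middle minus early called 4033, against 2284 with that shorter early window and 658 with the minimum change. Late minus early called 3827 against 977, the smooth course 6911 against 3743, and late minus middle 2240 against 251 with the minimum change and 1105 to 2570 with 1 array left out. With 1 array left out, middle minus early called 2840 to 4084, late minus early 3103 to 3868 and the smooth course 6023 to 6756. The causes were not tested, apart from the minimum change, which by its construction keeps fewer genes.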
